A study of Rattus norvegicus with 8 samples.

Results

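The comparison described here set the 4 arrays of rats that had undergone labyrinthectomy against the 4 arrays of rats that had undergone a sham operation, at both timepoints together, and picked out the microRNAs (miRNAs) that differed the same way at each timepoint. All 8 arrays of the series entered it. The animals were male Sprague–Dawley rats, 7 weeks old. In the unilateral vestibular deafferentation (UVD) group the left labyrinth, the organ of balance in the inner ear, was opened and treated with ethanol under anesthesia. The sham operation (SO) group had the same surgery on the left side without opening the labyrinth and without ethanol, so removal of the eardrum and of ossicles was shared by both groups. The left medial vestibular nucleus (MVN), dissected by hand, was collected 4 h or 4 d after surgery, with 2 arrays per group at each timepoint and the tissue of 3 animals pooled on each array.

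The MVN is a nucleus of the hindbrain that receives the vestibular nerve, and loss of one labyrinth silences its input on that side. Over the following days the imbalance between both sides declines, a process called vestibular compensation, in which changes in inhibition, excitability and the birth of new cells have been described. miRNAs are short RNAs that bind messenger RNAs mainly through the seed, bases 2 to 8 of the mature strand, and lower their translation or stability. Each hairpin precursor yields a 5p and a 3p arm, of which one usually dominates.

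Of 758 rat miRNAs on the array, 400 were detected on all 4 arrays of at least 1 operation and were tested, and 377 of these were detected on all 8 arrays. A further 22 were detected on all 4 SO arrays and on 3 UVD arrays, and in each case the array without detection was the second UVD replicate at 4 h. This array had 378 detected miRNAs, against 423 to 430 on the other UVD arrays and 408 to 415 on the SO arrays, and its mean correlation with the other arrays was 0.980, against 0.988 to 0.993. Values were total gene signals, the summed signal of the spots of a miRNA, quantile normalized over the 8 arrays; a normalized intensity under 1 was set to 1, called the floor below. The UVD arrays lay in row 2 of the slide and the SO arrays in row 1, so that slide row and operation cannot be told apart. The tissue label was checked against markers. The neuronal miR-124-3p, miR-9a-5p, miR-128-3p and miR-138-5p, the hindbrain miR-10a-5p and miR-10b-5p and the oligodendrocyte miR-219a-5p and miR-338-3p were detected on all arrays, and the liver miR-122-5p and the heart miR-208a-3p and miR-208b-3p on none. Among the markers of tissue beside the MVN, the muscle miR-1-3p, miR-133a-3p, miR-133b-3p and miR-206-3p and the choroid plexus miR-204-5p and miR-1298 were detected on all arrays, and the choroid plexus miR-429 and miR-200a-3p on none.

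The pooled fit found little that differed beyond the spread between arrays. With limma, the timepoint as a block and Benjamini-Hochberg adjustment, 2 of 400 miRNAs passed an adjusted p of 0.05 (0.500%), and both were lower after UVD. At an unadjusted p of 0.05 there were 40 (10.0%), 9 higher and 31 lower. The third smallest adjusted p was 0.395. Differences were small, with a median size of 0.10 on the log2 scale beside a median standard error (SE) of 0.08, and the mean was lower after UVD for 55.5% of the tested miRNAs. In bulk tissue, fewer cells of a type and less RNA per cell cannot be told apart.

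A second, descriptive rule asked for the same side at both timepoints. A miRNA was counted when both UVD arrays lay above, or both below, both SO arrays at 4 h and again, in the same direction, at 4 d. This held for 37 of the 400 miRNAs (9.25%), of which 27 were lower (6.75%) and 10 higher (2.50%) after UVD. At 4 h alone 211 did not overlap (52.8%), 95 higher and 116 lower. At 4 d alone the count was 113 (28.2%), 40 higher and 73 lower, and 22 miRNAs lay on opposite sides at the timepoints. With 2 arrays per group, many miRNAs separate at a timepoint by array order alone. The count of 37 is therefore a description and not evidence of a shared response. The direction of this count rested on the scaling of the arrays. It was 27 lower and 10 higher after quantile normalization, 8 lower and 39 higher when each array was divided by its 75th percentile over the miRNAs detected on all arrays, 10 lower and 30 higher with the percentile over all miRNAs, and 19 lower and 14 higher with the authors' own normalized values. Between these the lower share of the count ran from 73.0% to 17.0%, while the median difference of all tested miRNAs moved from −0.02 to 0.05 and 0.07 on the log2 scale under the percentile scalings. Across all tested miRNAs the differences at 4 h and at 4 d had a Pearson's r of 0.03 and a Spearman's rho of 0.11, as a description over 400 miRNAs that share the arrays and the normalization and are not independent replicates. The mean difference had the same sign at both timepoints for 55.5% of them.

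**Figure D1:**
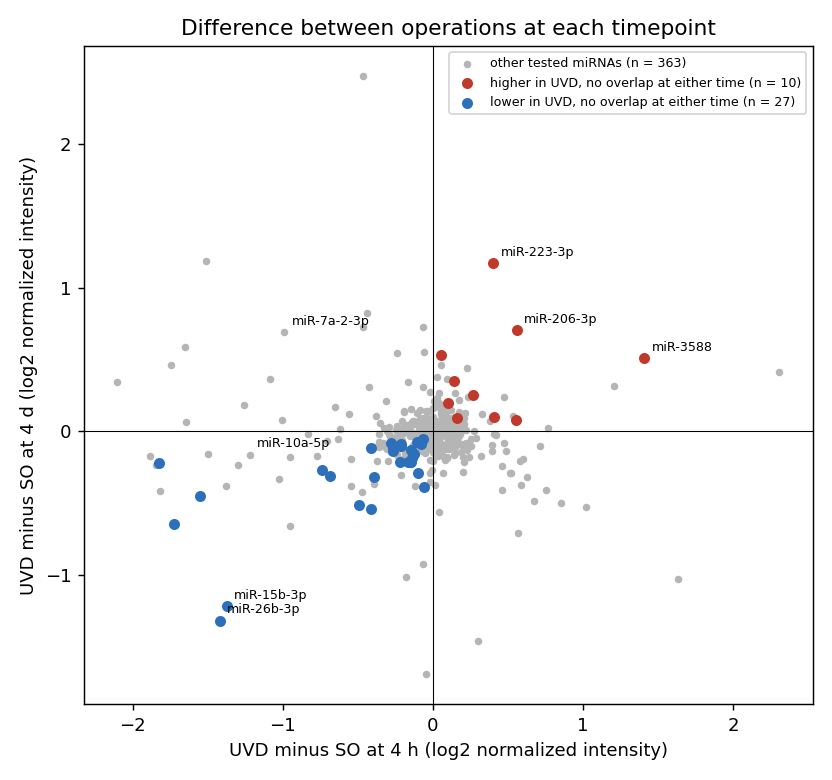
Each point is 1 of the 400 tested miRNAs, with the difference UVD minus SO at 4 h on the horizontal axis and at 4 d on the vertical axis, both in log2 normalized intensity (mean of 2 arrays minus mean of 2 arrays). The 27 blue and 10 red points did not overlap between operations at either timepoint; the other miRNAs spread over all 4 quadrants, more widely along the 4 h axis.

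The sequences of the miRNAs on which the results turn are given here, from RefSeq (rat build GRCr8), with the seed in capitals. The first pair passed the pooled test:

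miR-26b-3p: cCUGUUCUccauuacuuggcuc
miR-15b-3p: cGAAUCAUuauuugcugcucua

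These lay on the lower side at both timepoints and are discussed with the neuronal and oligodendrocyte miRNAs and with the imprinted cluster:

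miR-488-3p: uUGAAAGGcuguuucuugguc
miR-153-3p: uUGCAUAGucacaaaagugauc
miR-344b-3p: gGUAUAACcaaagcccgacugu
miR-219a-5p: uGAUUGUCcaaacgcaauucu
miR-411-5p: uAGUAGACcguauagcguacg
miR-485-5p: aGAGGCUGgccgugaugaauuc
miR-127-3p: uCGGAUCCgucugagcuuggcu
miR-341: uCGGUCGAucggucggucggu

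These lay on the higher side at both timepoints:

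miR-93-5p: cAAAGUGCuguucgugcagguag
let-7a-5p: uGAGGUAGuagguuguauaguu
miR-497-5p: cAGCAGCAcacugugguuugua
miR-204-5p: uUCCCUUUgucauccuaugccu
miR-34c-5p: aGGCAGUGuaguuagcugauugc
miR-206-3p: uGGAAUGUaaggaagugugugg
miR-223-3p: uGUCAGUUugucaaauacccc
miR-31a-3p: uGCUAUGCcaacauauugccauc
miR-3588: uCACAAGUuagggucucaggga

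miR-503-5p lay on the lower side and is set beside miR-497-5p because their seeds are close but not identical:

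miR-503-5p: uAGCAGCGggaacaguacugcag

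Of the 37 miRNAs, 36 had an entry, and these held 36 distinct seeds, so no seed was shared between any of them. Seeds were compared only among the 366 tested miRNAs with an entry, and tested miRNAs without one are not in the counts that follow. Within this set, 9 of the 36 had another tested miRNA with the same seed. miR-15a-5p, a tested member of the family of miR-497-5p, is not among the relatives counted here. The 4 others with the seed of miR-93-5p all had a higher mean after UVD, with differences of 0.09 to 0.20 on the log2 scale, as did the 4 others with the seed of miR-497-5p (0.04 to 0.33) and the 8 others with the seed of let-7a-5p (0.01 to 0.13). Both others with the seed of miR-206-3p and the only other with that of miR-204-5p (0.26) were also higher in mean, and the only others with the seeds of miR-326-3p (−0.18) and miR-450b-5p (−0.13) were lower, as those miRNAs were. The relatives of miR-34c-5p were split, with 1 higher and 2 lower and differences from −0.53 to 0.20, as were those of miR-148a-3p, with 1 higher and 1 lower. None of these relatives lay on the same side at both timepoints. For 17 of the 37 the opposite arm of the hairpin had an entry and had been tested as well, and its mean difference had the same sign in 13. Tested opposite arms without an entry, such as miR-136-5p, are not in this count.

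Both miRNAs past the adjusted threshold were minor arms of their hairpins and lay at the limit of detection. miR-26b-3p lies within Ctdsp1 (chr9:83425759-83425780) and miR-15b-3p within Smc4 (chr2:155555235-155555256). The normalized intensity of miR-26b-3p was 1.00 and 1.00 after UVD at 4 h, 1.28 and 1.00 at 4 d, 3.21 and 2.22 after SO at 4 h and 2.30 and 3.48 at 4 d. For miR-15b-3p the values were 1.00, 1.00, 1.21 and 1.00 after UVD and 3.12, 2.15, 2.10 and 3.12 after SO, in the same order. Every UVD array lay below every SO array for both, and 3 of the 4 UVD values of each were at the floor. The difference was −1.37 ± 0.18 (log2, SE) for miR-26b-3p and −1.30 ± 0.17 for miR-15b-3p, each with a limma adjusted p of 0.034 over all tested miRNAs.

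Before normalization the signals of the pair were not separated by operation. Total gene signals of miR-26b-3p were 1.99, 0.10, 3.39 and 2.21 after UVD and 2.00, 2.75, 3.11 and 3.20 after SO, where 0.10 is the value the scanner software gives a miRNA it does not detect. Those of miR-15b-3p were 1.96, 0.10, 3.11 and 2.86 after UVD and 1.89, 2.61, 2.51 and 2.80 after SO. The ranges overlapped for both, and the software's own error on each detected value was between 0.555 and 0.713. The number of detected miRNAs whose normalized intensity fell under the floor was 7, 0, 1 and 8 on the UVD arrays and 0 on each SO array. The dominant arms of the same hairpins did not follow. miR-26b-5p, at 2594 to 3329 on all arrays, differed by 0.08 ± 0.08 (adjusted p = 0.675, limma) and miR-15b-5p by 0.13 ± 0.08 (adjusted p = 0.492, limma). With the authors' values the difference was −0.02 for each. Both calls were lost under every other scaling and on leaving out any single array. Without the second UVD replicate at 4 h, 2 miRNAs passed again, but these were miR-452-5p and miR-547-3p, which were not among the 400 miRNAs tested with all arrays and are named after their values were seen.

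**Figure D2:**
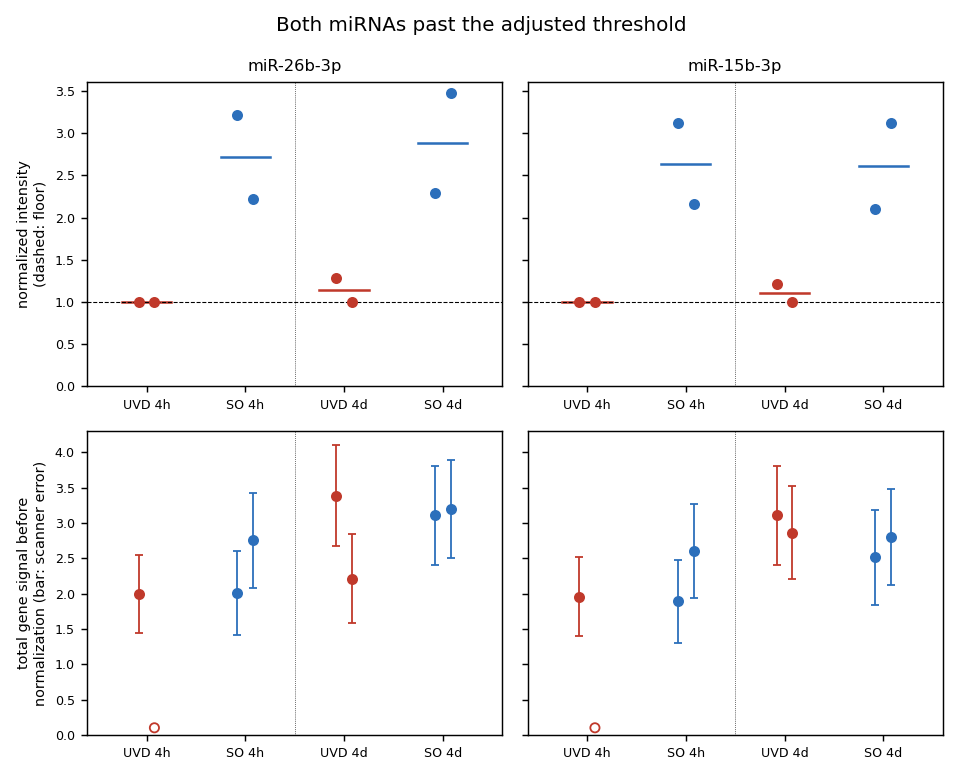
Points are single arrays for miR-26b-3p and miR-15b-3p, UVD in red and SO in blue. The upper row shows normalized intensity, with group means as bars and the floor of 1 dashed; the lower row shows the total gene signal before normalization with the scanner software's error, and open circles mark arrays on which the miRNA was not detected. The operations are apart in the upper row and overlap in the lower row.

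Neuron-enriched miRNAs as a list were split evenly, and under the percentile scalings 10 of 16 had a higher mean. Of 16 tested, 8 had a higher and 8 a lower mean after UVD, with a median difference of −0.01 beside −0.02 for all tested miRNAs, none passed the adjusted threshold and 3 had an unadjusted p under 0.05, all lower (7.75% of all tested miRNAs were lower at this limit). Of the list, 2 members lay lower at both timepoints (12.5%, against 6.75% of all tested). miR-488-3p, encoded within Astn1, had a normalized intensity of 33.3 and 35.9 after UVD at 4 h and 35.4 and 29.4 at 4 d, and of 48.9 and 42.3 after SO at 4 h and 43.3 and 37.1 at 4 d. All 4 UVD arrays lay below all 4 SO arrays. The difference was −0.36 ± 0.09 with a limma adjusted p of 0.395, and −0.12 with the authors' values. miR-153-3p, encoded within Ptprn2 and known to act on α-synuclein, was at 473, 510.2, 491 and 473 after UVD and at 629, 681, 534 and 510.2 after SO. Its SO values were separated from the UVD values more widely at 4 h (−0.41 ± 0.07) than at 4 d (−0.11 ± 0.07), and the difference between these was not past the threshold (interaction adjusted p = 0.463, limma). miR-137-3p, which regulates neuronal maturation, overlapped at 4 d. It was at 604 and 614 after UVD against 1030.2 and 1046 after SO at 4 h, and at 473 and 534 against 614 and 524 at 4 d.

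miRNAs whose transcription follows neuronal activity had lower pooled means with quantile normalization. All 5 tested members had a lower mean after UVD, with a median of −0.18, but under the percentile scalings and without scaling 1 of the 5 had a higher mean. The mean was lower at both timepoints for 3 of the 5. miR-134-5p differed by 0.20 at 4 h and −0.28 at 4 d (pooled −0.04), and the pooled difference of miR-212-3p was −0.02. None of the 5 passed the adjusted threshold. miR-485-5p, which acts at synapses and also belongs to the imprinted cluster below, was at 74.6, 85.3, 68.4 and 66.2 after UVD and at 86.2, 90.4, 81.0 and 74.9 after SO. The UVD arrays lay lower within each timepoint, and the difference was −0.18 ± 0.06 (limma adjusted p = 0.395). miR-212-5p, of the CREB-responsive miR-132/212 cluster, was weak, at 5.03 to 9.38 after UVD and 6.57 to 11 after SO, and lay lower at both timepoints (−0.50 ± 0.14, limma adjusted p = 0.395; −0.07 with the authors' values). Its abundant neighbor miR-132-3p was at 1571, 1503, 1115 and 1161 after UVD and at 1921, 1709, 1464 and 1115 after SO, so that the operations overlapped at 4 d.

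The rodent brain miR-344 family had 2 tested members, and both lay lower at both timepoints, as did 6.75% of all tested miRNAs. miR-344b-3p was at 11, 13.7, 10.1 and 10.1 after UVD and at 22.5, 18.6, 13.3 and 11.1 after SO, a difference of −0.50 ± 0.14, or −0.11 with the authors' values. miR-344a-3p was at 99.7, 107, 95.0 and 96.4 after UVD and at 131, 120.2, 101 and 101 after SO, a difference of −0.18 ± 0.06. Both had a limma adjusted p of 0.395, and under the scaling by the 75th percentile of the miRNAs detected on all arrays neither kept its place. Also lower at both timepoints were miR-298-5p (9.83, 13.1, 7.45 and 8.15 against 20.7, 16.1, 10.2 and 9.11; −0.50 ± 0.14, but −0.05 with the authors' values and −0.02 with normexp), miR-490-3p, encoded within Chrm2 (−0.16 ± 0.06), and miR-346, encoded within Grid1 (−0.19 ± 0.07). The smallest differences among the 37 were those of miR-326-3p, encoded within Arrb1 (−0.08 ± 0.04), and miR-22-3p (−0.06 ± 0.04), and 7 of the 27 lower miRNAs had a mean under 10 in both operations.

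**Figure D3:**
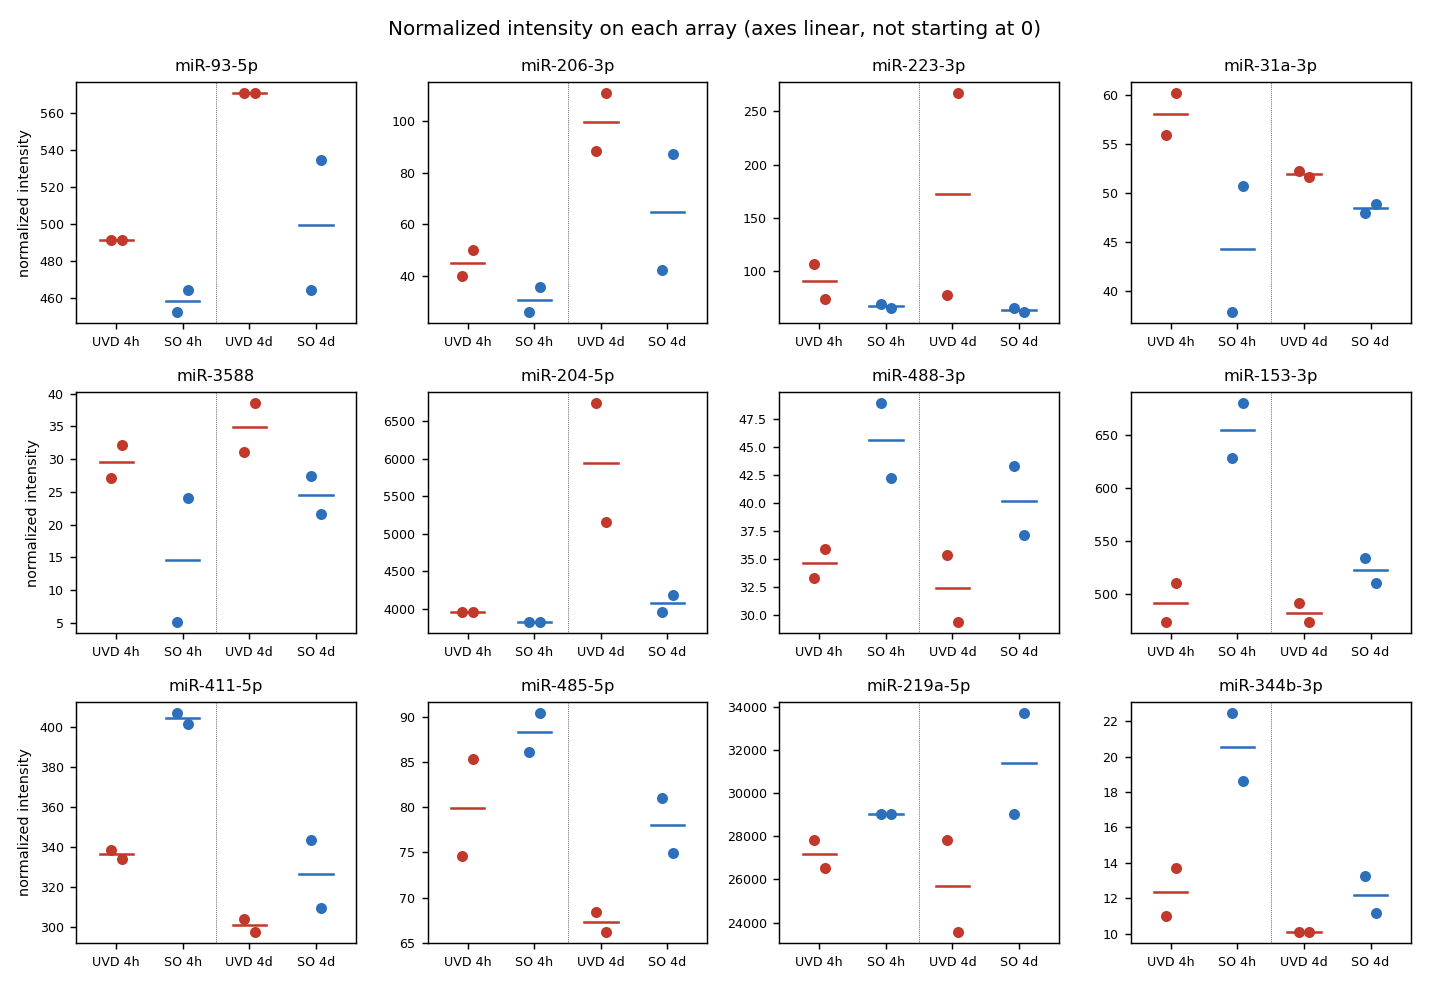
Normalized intensity on each array of 12 miRNAs on the same side at both timepoints, UVD in red and SO in blue, with bars at the group means of 2 arrays; the first 6 panels are higher and the last 6 lower after UVD, and the linear axes do not start at 0. Gaps between operations within a timepoint are often of the size of the gap between arrays of 1 group, as for miR-31a-3p at 4 h (37.9 and 50.7 after SO).

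One large list leaned to the lower side, the miRNAs of the imprinted Dlk1-Dio3 region, which are expressed from the maternal chromosome and abundant in neurons. Of 58 tested members, 54 had a lower mean after UVD and 4 a higher one, against 55.5% lower among all tested miRNAs. Their median difference was −0.12, −0.19 at 4 h and −0.07 at 4 d, beside −0.02 for all tested miRNAs at both timepoints together. At both timepoints the mean was lower for 39 members (67.2%, against 33.5% of all tested miRNAs). None passed the adjusted threshold, with a smallest adjusted p of 0.395 by limma, and 12 had an unadjusted p under 0.05, all lower (20.7%, against 7.75% of all tested). The median stayed below that of all tested miRNAs under the other scalings, at −0.07 beside 0.05, −0.05 beside 0.07 and −0.09 beside 0.03 without scaling, while 47, 44 and 55 of the 58 had a lower mean. The difference was larger in size at 4 h than at 4 d in 41 of the 58. Neighbors in the region are processed from shared transcripts and are not independent of each other.

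The region spans chr6:134298129-134579828 in RefSeq and holds 58 tested miRNAs with a position, of which 56 are on the list; 9 of these 58 lay lower at both timepoints and 0 higher, against 6.75% lower and 2.50% higher of all tested miRNAs. On the list itself the number on the lower side was 8, against 27 of all tested miRNAs. It was 5 and 7 under the percentile scalings (8 and 10 of all tested) and 1 without scaling (1 of all tested). Without replicate 1 of UVD at 4 d it was 17 (50 of all tested). Without replicate 2 of SO at 4 d it was 33 (74 of all tested). Leaving out an array loosens the rule for all miRNAs. Within Rtl1, to which they are antisense, lay miR-433-3p, miR-127-3p and miR-136-3p. miR-127-3p, the most abundant of them, was at 7029, 6745, 5418 and 5604 after UVD and at 8875, 7267, 6745 and 6045 after SO. At each timepoint both UVD arrays were below both SO arrays, and the difference was −0.22 ± 0.08, nearly equal at 4 h (−0.22) and 4 d (−0.21). It shrank to −0.07 and −0.05 under the percentile scalings. The arrays of miR-127-3p stayed apart at both timepoints with normexp, but not under the percentile scalings, without scaling or with the authors' values. miR-136-3p was at 1030.2, 1046, 1014 and 987 against 1201, 1201, 1115 and 1030.2 (−0.16 ± 0.05), and its other arm miR-136-5p had a difference of −0.21 ± 0.07. miR-433-3p differed by −0.14 ± 0.06. Neither miR-136-3p nor miR-433-3p kept its side under any of these other values. miR-341, a repeat of CGGU units that lies in the region but was not on the list, was at 629, 644, 604 and 604 against 786, 689.6, 670.3 and 614 (−0.15 ± 0.06).

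In the large cluster from miR-379 to miR-410, the members on the lower side were miR-411-5p, miR-381-5p, miR-485-5p, miR-154-5p and miR-541-5p. miR-411-5p was at 339, 334, 304 and 298 after UVD and at 407, 402, 343 and 309 after SO. The difference was −0.26 ± 0.07 at 4 h and −0.12 ± 0.07 at 4 d, and the pooled difference was −0.19 ± 0.06 (limma adjusted p = 0.395). miR-541-5p was at 114, 122, 101 and 99.7 against 145, 139, 118 and 103 (−0.20 ± 0.06). miR-154-5p showed the smallest difference of these, −0.09 ± 0.04. miR-381-5p, under 10 on every array, kept its side under all 5 other sets of values (the percentile scalings, no scaling, the authors' values and normexp), and miR-411-5p and miR-485-5p kept theirs under 4 of the 5.

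**Figure D4:**
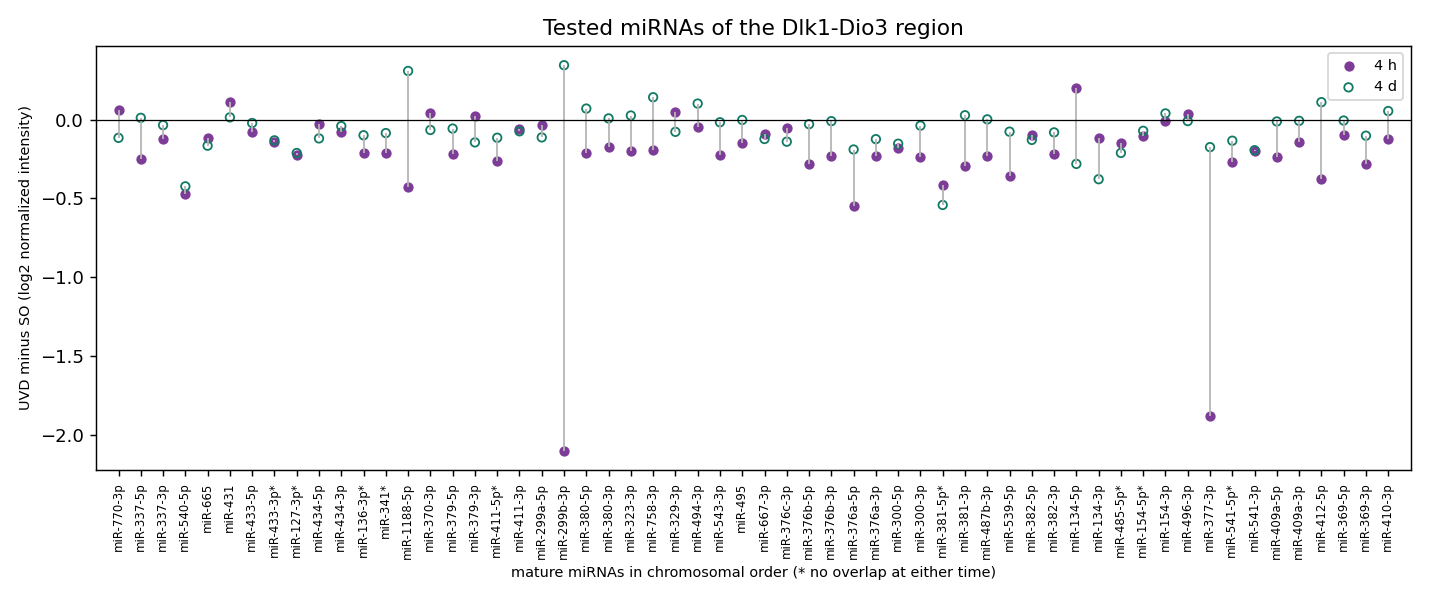
Tested miRNAs of the Dlk1-Dio3 region in chromosomal order, with the difference UVD minus SO in log2 normalized intensity at 4 h (filled) and 4 d (open), each from 2 arrays per operation. Most points of both kinds lie below 0, and the lowest values, of miR-299b-3p (−2.10) and miR-377-3p (−1.88), are at 4 h only.

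Families tied to proliferation leaned the other way. The clusters of the miR-17 family, which promotes cell cycle entry, had a higher mean in 11 of 14 tested members, with a median of 0.10. miR-93-5p, of the miR-106b/25 cluster within Mcm7, was at 491, 491, 571 and 571 after UVD and at 452, 464, 464 and 534 after SO. It lay higher at both timepoints by 0.15 ± 0.06 (limma adjusted p = 0.395) and kept its side under 4 of the 5 other sets of values. Its seed relative miR-20b-5p was at 298, 309, 339 and 425 after UVD and at 267, 271, 309 and 343 after SO, so that it was apart at 4 h and overlapped at 4 d (0.20 ± 0.08).

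The family of miR-15, miR-16, miR-195 and miR-497, which restrains cyclins, had a higher mean in 6 of 6 tested members (median 0.11), also under the other scalings and with the authors' values. miR-497-5p was at 1014, 1030.2, 1503 and 1834 after UVD and at 976, 879.8, 1161 and 1464 after SO. It lay higher at both timepoints by 0.25 ± 0.11 (limma adjusted p = 0.395), less than the gap of either operation between 4 h and 4 d. Its cluster partner miR-195-5p, at 1077, 1115, 1709 and 2212 against 962, 912, 1201 and 1709, differed by 0.33 ± 0.14, and its lower UVD value at 4 d equalled the higher SO value. miR-503-5p, whose seed is close to that of the family, went the other way, at 37.5, 35.6, 33.4 and 35.6 against 39.9, 39.9, 37.1 and 39.9 (−0.14 ± 0.05).

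The let-7 family, which favors differentiation over division, had a higher mean in 11 of 14 tested members with a small median of 0.04; with the authors' values it was 8 of 14. let-7a-5p was at 26530.4, 29054, 29054 and 30366 after UVD and at 23574, 26106, 27832 and 27832 after SO. The arrays were apart at both timepoints by a narrow margin, and the difference was 0.13 ± 0.06 (limma adjusted p = 0.395). miR-139-5p, encoded within Pde2a, was at 39.4, 46.0, 39.9 and 34.0 against 38.6, 32.5, 30.0 and 31.9 (0.26 ± 0.09), higher on the same side at both timepoints.

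Markers of the choroid plexus and of ciliated ependyma, tissues that line the ventricle next to the MVN, had a median of 0.26, with 10 of 11 tested members higher in mean. The median was 0.10 with the authors' values and 0.08 with normexp, with 11 of 11 higher under both, and it was then below that of other lists. miR-204-5p, encoded within Trpm3, was at 3957 and 3957 after UVD at 4 h and 6745 and 5151 at 4 d, against 3820.1 and 3820.1 after SO at 4 h and 3957 and 4179.5 at 4 d. It was apart at both timepoints, but by 0.05 ± 0.13 at 4 h and 0.54 ± 0.13 at 4 d, and the pooled difference was 0.29 ± 0.13 (limma adjusted p = 0.395), or 0.16 without replicate 1 of UVD at 4 d. miR-1298 moved with it at 4 d only, at 125 and 48.9 after UVD against 18.6 and 10.5 after SO, and at 18.6 and 16.1 against 25.3 and 22.7 at 4 h. miR-34c-5p, of ciliated cells, was at 912, 949, 1046 and 1046 after UVD and at 681, 590.0, 976 and 1000.3 after SO. It lay higher at both timepoints by 0.32 ± 0.11 (limma adjusted p = 0.395), with most of the gap at 4 h. The summed normalized intensity of the 15 listed miRNAs on the array was 6061 to 9392 after UVD and 5335 to 6584 after SO. Of these 15, 10 were detected on all 8 arrays and 4 on none, among the latter miR-429 and miR-200a-3p. The part of dissected neighboring tissue in these values was not tested.

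Muscle miRNAs had a higher mean in 6 of 6 tested members (median 0.11), which was 5 of 6 with normexp background correction, and the median was 0.50 at 4 h and −0.14 at 4 d. miR-206-3p was at 39.9, 49.8, 88.4 and 111 after UVD and at 25.8, 35.6, 42.3 and 87.4 after SO. The operations were apart within each timepoint but not across them, and the difference was 0.63 ± 0.25 (limma adjusted p = 0.395), or 0.41 without replicate 1 of SO at 4 d. Its seed relatives miR-1-3p and miR-1b differed by 0.11 and 0.19. The summed muscle markers overlapped, at 1771 to 2356 after UVD and 1599 to 2379.6 after SO, and their part in the value of miR-206-3p was not tested.

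Microglia and leukocyte miRNAs had a higher mean in 7 of 9 tested members (median 0.10), and in 6 of 9 with the authors' values. Their summed markers overlapped, at 3167 to 3800.0 after UVD and 2908 to 3489.7 after SO. miR-223-3p, the main miRNA of myeloid cells, was at 107, 74.6, 77.5 and 267 after UVD and at 69.5, 65.8, 65.8 and 61.8 after SO. All 4 UVD arrays lay above all 4 SO arrays, but the second UVD replicate at 4 d stood far above the rest. The difference was 0.79 ± 0.40 (limma adjusted p = 0.451) and became 0.36 without that array. miR-155-5p, induced in activated immune cells, was apart at 4 h (44.9 and 48.0 against 36.5 and 30.7) and overlapped at 4 d (46.9 and 69.5 against 46.0 and 50.7), with a difference of 0.36 ± 0.14. miR-142-3p, common to blood cells, had 366 to 712 after UVD and 379.7 to 629 after SO.

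Oligodendrocyte miRNAs had a lower mean in 5 of 6 tested members (median −0.07), a direction that turned to 4 of 6 higher under the percentile scalings and to an even split without scaling. miR-219a-5p, which drives oligodendrocyte maturation and was among the most intense miRNAs on the array, was at 27832, 26530.4, 27832 and 23574 after UVD and at 29054, 29054, 29054 and 33707 after SO. All UVD arrays were below all SO arrays, with differences of −0.10 ± 0.11 at 4 h and −0.29 ± 0.11 at 4 d and a pooled difference of −0.19 ± 0.08 (limma adjusted p = 0.395), or −0.13 without either replicate 2 at 4 d. Under either percentile scaling, and without scaling, it was no longer on the same side at both timepoints. The summed oligodendrocyte markers, which include miR-219a-5p itself, were at 45282 to 54284 after UVD and at 54661 to 59613 after SO. Their part in the values of this list was not tested. The other markers in the sum overlapped between operations. miR-219a-2-3p, the other arm of the miR-219a-5p hairpin, was at 3658 to 4180 in both and differed by −0.05. miR-338-3p was at 18049.5 to 23574 after UVD and 21949 to 23574 after SO, and differed by −0.07.

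**Figure D5:**
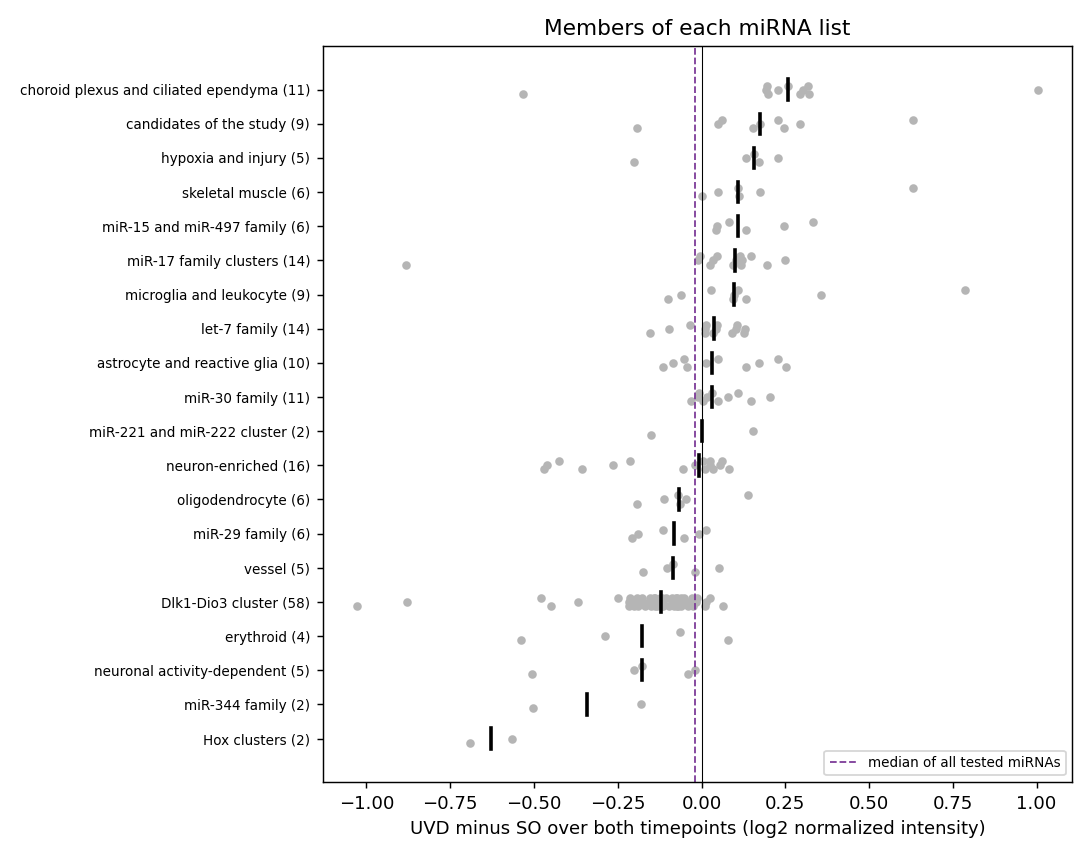
Grey points are the tested members of each miRNA list, placed by the difference UVD minus SO over both timepoints in log2 normalized intensity (4 arrays against 4); black bars are list medians, the dashed line is the median of all tested miRNAs, and numbers in brackets count the tested members. With quantile normalized values, medians run from −0.63 for 2 Hox cluster members to 0.26 for the choroid plexus and ependyma list.

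The other lists gave little. None of their members passed the adjusted threshold. Astrocyte and reactive glia miRNAs were higher in mean in 6 of 10 tested members (median 0.03; 5 of 10 with the authors' values), the miR-30 family in 8 of 11 (0.03) and the hypoxia and injury list in 4 of 5 (0.16). Vessel miRNAs were lower in 4 of 5 (−0.08), which turned to 3 of 5 higher under the percentile scalings. Erythroid miRNAs were lower in 3 of 4 (−0.18), an even split with the authors' values or normexp, and the miR-29 family was lower in 5 of 6 (−0.08). Of the miR-221 and miR-222 cluster, 1 tested member was higher and 1 lower.

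Without regard to timepoint, all 4 UVD arrays lay on one side of all 4 SO arrays for 10 of 400 miRNAs (2.50%). Among 400 miRNAs some separate fully by array order alone, so this is a description and does not single out these miRNAs. Besides miR-26b-3p, miR-15b-3p and 3 others with a mean under 10 in both operations, these were miR-488-3p, miR-219a-5p and miR-33-5p on the lower side and miR-223-3p and miR-31a-3p on the higher side. miR-33-5p, encoded within Srebf2 and a regulator of cholesterol transport, is named after its values were seen, at 229, 229, 229 and 179.5 after UVD and 243, 234, 255 and 275 after SO. miR-31a-3p was at 56.0, 60.2, 52.3 and 51.6 against 37.9, 50.7, 48.0 and 48.9 (0.25 ± 0.11), and its other arm miR-31a-5p at 171, 182, 171 and 177 against 122, 150.3, 159 and 171 (0.23 ± 0.10). miR-3588 was at 27.1, 32.1, 31.2 and 38.6 against 5.12, 24.1, 27.5 and 21.6 (0.96 ± 0.48), where replicate 1 of the SO group at 4 h lay far below the other SO arrays; without that array the difference was 0.42, and with the authors' values 0.22. Of the 37 miRNAs on the same side, 2 kept their side under all 5 other sets of values (miR-381-5p and miR-3588). A further 7 did so under 4 of them (miR-206-3p, miR-223-3p, miR-31a-3p, miR-93-5p, miR-411-5p, miR-485-5p and miR-488-3p). The 10 that kept it under none were miR-26b-3p, miR-15b-3p, miR-153-3p, miR-136-3p, miR-433-3p, miR-154-5p, miR-326-3p, miR-346, miR-148a-3p and miR-450b-5p, all lower. Of the higher ones among the 37, miR-206-3p had a difference of 0.33, miR-223-3p of 0.52, miR-31a-3p of 0.13 and miR-139-5p of 0.08 with the authors' values.

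Of the 9 miRNAs the study took forward as candidates, 4 lay on the same side at both timepoints, against 9.25% of all tested miRNAs. miR-204-5p, miR-206-3p and miR-497-5p were higher and miR-219a-5p lower, with the values above. The candidates were chosen on these arrays, so their directions are not independent evidence. miR-218a-5p, encoded within Slit2 and Slit3 and abundant in hindbrain motor neurons, was at 4505 and 3820.1 after UVD at 4 h and 2949 and 2949 at 4 d, against 3257 and 3957 after SO at 4 h and 3329 and 2949 at 4 d. The operations overlapped at both timepoints, and the difference was 0.06 ± 0.10 (limma adjusted p = 0.818). miR-221-3p, which acts on cell cycle inhibitors, was lower at 4 h (87.4 and 101 against 107 and 115) and higher at 4 d (133 and 164 against 109 and 93.3). The pooled difference was 0.15 ± 0.18, and the interaction of 0.79 ± 0.20 did not pass the threshold (adjusted p = 0.463, limma). miR-133a-3p and miR-133b-3p differed by 0.17 ± 0.16 and 0.05 ± 0.14.

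Some miRNAs differed between operations at 1 timepoint, or in opposite directions at each, and so fell outside the shared pattern. In the 4-group limma model, 1 of 400 miRNAs passed at 4 h (0.250%) and 0 at 4 d (0%). At an unadjusted limma p of 0.05 there were 73 at 4 h and 14 at 4 d. The 4 h contrast includes the second UVD replicate, the array with the fewest detected miRNAs. At 4 d the smallest limma adjusted p was 0.0893, and the methods' t-test also gave 0 after adjustment. The test of the difference between timepoints passed for 1 miRNA (0.250%), miR-7a-2-3p, a minor arm of a hairpin of the neuroendocrine miR-7 family. It was at 9.0 and 9.52 after UVD against 19.1 and 17.7 after SO at 4 h, and at 10.8 and 9.63 against 6.29 and 6.29 at 4 d. UVD values were alike at both timepoints, and the SO values lay above them at 4 h and below them at 4 d. The difference was −0.99 ± 0.08 at 4 h (adjusted p = 0.0143, limma) and 0.69 ± 0.08 at 4 d, with an interaction of 1.68 ± 0.11 (adjusted p = 0.00546, limma); the call was lost under the percentile scalings and without scaling, where the interaction was 1.52 to 1.96, and with the authors' values and normexp, where it was 0.17 and 0.11. miR-10a-5p and miR-10b-5p, encoded in the Hox clusters and markers of hindbrain identity, were also apart at 4 h. miR-10a-5p was at 200.0 and 205 against 491 and 452 at 4 h and at 168 and 171 against 226 and 159 at 4 d. miR-7a-5p followed the same course, at 414 and 452 against 868 and 868 at 4 h and at 402 and 402 against 452 and 318 at 4 d. In the interaction test their adjusted p was 0.397 for miR-10a-5p and for miR-7a-5p and 0.463 for miR-10b-5p by limma.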

How the data were processed

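RNA of the left MVN, pooled from 3 rats, was labeled with 1 dye and hybridized to 1 array per sample, on 1 slide. The authors deposited the scanner intensity files written by Agilent Feature Extraction 10.7.3.1, with 16 spots per miRNA, and their own normalized intensity values, which they quantile normalized in GeneSpring.

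From the scanner files the total gene signal (background-subtracted intensity summed per miRNA) was taken, control spots were left out, and the 8 arrays were quantile normalized. After this a floor of 1 was applied, and log2 was taken. The 400 miRNAs detected on all 4 arrays of at least 1 operation were fitted with limma 3.58.1 in R 4.3.3 (lmFit, eBayes) with timepoint as a block, and with 4 group means for each timepoint and the interaction. Adjustment was by Benjamini-Hochberg over all tested miRNAs, at a threshold of 0.05. The model was run on simulated data with independent normal noise, in which 60 of 400 miRNAs were shifted. It recovered 46.2% of log2 changes of 0.3, 76% of 0.5 and 89.2% of 1, and 3.9% of calls were false. The simulation applied no floor and had no scaling shift or deviant array. It also gave each shifted miRNA the same change at both timepoints. The measured differences at 4 h and 4 d had a Pearson's r of only 0.03. It therefore cannot speak to these features of the data, and its recovery rates do not carry over to them.

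The members, the 20 miRNA lists and the rule for named miRNAs were chosen with earlier results of these data known. By this rule the text names miRNAs past the threshold, up to 12 higher and 12 lower on the same side by smallest p, of which there were 10 higher (those under an intensity of 10 only by count), the 9 candidates, up to 3 members per list, the 5 smallest interaction p and relatives of these. miR-381-5p, miR-490-3p, miR-346, miR-326-3p, miR-22-3p, miR-148a-3p, miR-450b-5p, miR-1298, miR-142-3p, miR-134-5p, miR-299b-3p and miR-377-3p were named after their values were seen. Replicates were pools of different animals, and 2 arrays per group limit the precision. Alternatives were other scalings, signals, filters, floors, variance models, the methods' t-test, a replicate block and leaving out each array. Sequences came from RefSeq.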

Additional observations from a re-analysis of the deposited data

Results flagged for a closer look

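Of 96 groups of 4 arrays examined, 9 had 1 array far from the other 3; chance flags about 1 in 20 groups. The values given are the gap to the nearest array divided by the range of the 4 arrays. Replicate 2 of the UVD group at 4 h stood apart in its number of detected miRNAs, 378 against 423 to 430 (0.865). Replicate 2 of the UVD group at 4 d stood high for miR-223-3p (0.830) and miR-155-5p (0.875) and low for miR-33-5p (1, since the other 3 values were tied). For miR-26b-3p and miR-15b-3p replicate 1 of the UVD group at 4 d lay above the other 3, which were at the floor (1 for each). In the SO group, replicate 1 at 4 d was low for miR-503-5p (1) and replicate 2 at 4 d was high for miR-93-5p (0.851) and miR-219a-5p (1).

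The difference between operations changed between the timepoints for miR-7a-2-3p, by 1.68 on the log2 scale between 4 h and 4 d (limma interaction, adjusted p = 0.00546 over all tested miRNAs).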

How the results depend on the processing

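The 2 pooled calls remained 2 without a timepoint term, with robust eBayes and, in a pairing chosen after seeing the data, with replicate numbers crossed at 4 d. The count was 0 under all of the following: both 75th percentile scalings, no scaling, the authors' values, normexp, no filter on detection, detection on all 8 arrays, a floor of 4, quantile normalization over miRNAs detected on all 8 arrays (added after seeing the data), the 4-group model, eBayes with a trend, the methods' t-test (76 at the methods' own p limit) and the replicate block. Leaving out 1 array gave 0 to 2. Replicate numbers did not pair the arrays. Across miRNAs, the deviations of same-numbered UVD and SO arrays from their group means correlated at −0.03 at 4 h and −0.16 at 4 d. With the replicate block 0 miRNAs passed in the pooled test and 0 in the interaction.

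The 4 h count of 1 became 0 under the percentile scalings, no scaling and the methods' t-test, 2 with no filter or a floor of 4, 3 with the authors' values or detection on all 8 arrays, 4 with quantile normalization over those detected on all 8, and 7 with normexp, and it ran from 0 to 11 with 1 array left out. The 4 d count of 0 became 2 with no filter. The interaction count of 1 became 0 under the percentile scalings, no scaling, the authors' values and normexp and 3 with no filter, with 0 to 8 on leaving out 1 array.

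The 27 lower miRNAs on the same side became 8 with the percentile of miRNAs detected on all arrays, 10 with that of all miRNAs and 1 with no scaling; the 10 higher became 39 and 30 under the percentile scalings and 29 with normexp. Leaving out 1 array, which loosens the rule, gave 29 to 74 lower and 11 to 34 higher, with 74 and 34 without replicate 2 of the SO group at 4 d. Members of the Dlk1-Dio3 list with a lower mean were 44 to 55 under the alternatives. miR-26b-3p and miR-15b-3p were tested in 20 alternatives, against 22 for the other named miRNAs. Their difference was 0 with a floor of 4. Counting these, 43 of 47 named miRNAs reversed their direction under no alternative. The others turned with 1 array left out, when miR-218a-5p ran from −0.028 to 0.13 (log2 difference; −0.023 and −0.028 without replicate 1 of the UVD or of the SO group at 4 h), miR-7a-2-3p from −0.34 to 0.049 (0.049 and 0.043 without these same arrays), miR-133b-3p from −0.051 to 0.18 (−0.011 without replicate 1 of the UVD group at 4 d, −0.051 without replicate 1 of the SO group at 4 h) and miR-26b-5p from −0.0028 to 0.14 (−0.0028 without the latter). The cause of these changes was not tested. Signals near background limit the weakest miRNAs, and 4 arrays per operation limit all.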
